A study of Mus musculus with 8 samples.

Results

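The hypoxia-inducible factor genes Hif1a and Epas1 and 8 genes of the hypoxia response outside glycolysis (Vegfa, Bnip3, Ndrg1, Egln1, Egln3, Ankrd37, P4ha1 and Fam162a) were followed in mouse morulae. They are the rows of the deposited table with these gene symbols, 10 of 18257 genes, and all 10 passed the filter on low counts that left 12936 genes. The genes were selected on their known role and with their levels in these same A485 and control libraries in view, so their differences between the groups are a description and support nothing further. Control embryos were cultured in KSOM medium with 0.1% DMSO, the solvent, and treated embryos in KSOM with 2 µM A485, a small molecule that blocks acetylation by the coactivators p300 and CBP, in both cases from the 4-cell stage on. No DMSO percentage is given for the A485 medium, so whether the solvent was matched is not known. Both groups are labelled wild-type, with no strain or age given, and each has 4 libraries of 3 pooled embryos without zona pellucida. Culture to the blastocyst is described while the samples are labelled morulae, and oxygen tension is not given in the labels.

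Hypoxia-inducible factors are pairs of an oxygen-regulated alpha subunit, encoded by Hif1a or Epas1, and the constant subunit ARNT. In the presence of oxygen the prolyl hydroxylases encoded by the Egln genes modify the alpha subunits, the VHL ubiquitin ligase complex binds the modified form, and it is degraded. A further hydroxylase, encoded by Hif1an, blocks the contact of the alpha subunit with p300 and CBP, which serve as coactivators at hypoxia target genes. Regulation of these factors is thus largely at the protein, which RNA counts do not show. Egln3, Egln1, Vegfa, Bnip3, Ndrg1, Ankrd37, P4ha1 and Fam162a are known as targets of the factors in many tissues.

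The libraries held 23641781 to 25677701 estimated counts each. The first principal component of log2 CPM (CPM, counts scaled to a common depth with TMM factors that correct for library composition) took 73.1% of the variance and separated the groups, and A485 replicate 1 lay closest to the controls on it. The second component, with 8.90%, separated A485 replicates 1 and 2 from replicates 3 and 4, and no label names a batch. Of 12 morula markers 8 fell and 3 rose, beside 25.0% and 29.7% of all genes tested. The markers summed to 9324 to 10411 CPM in control and 3533 to 5993 CPM in A485 libraries. Dppa3 made up most of that sum in controls, with a mean of 7211 CPM in control and 2003 CPM in A485. From control to A485, Nanog fell from a mean of 292 to 32.0 CPM, Cdx2 from 50.8 to 1.94 CPM and Gata3 from 84.6 to 16.1 CPM. Pou5f1 fell from 845 to 293 CPM, Tfap2c from 96.3 to 28.2 CPM, Tead4 from 122 to 52.0 CPM and Klf5 from 60.9 to 22.5 CPM. Krt8 rose from a mean of 373 to 1217 CPM, Krt18 from 508 to 1106 CPM and Klf17 from 4.69 to 43.2 CPM. Cdh1 had a mean of 44.9 and 55.1 CPM and did not pass the threshold. Markers of cumulus and granulosa cells (9 genes) summed to 0.208 to 0.572 CPM in control and 1.33 to 3.13 CPM in A485 libraries, and those of oviduct and stroma (8 genes) to 1.08 to 3.06 and 1.63 to 6.53 CPM. Those of blood and endothelium (9 genes) summed to 21.0 to 30.5 CPM in control and 125 to 362 CPM in A485 libraries. Hba-a1 made up most of that difference, with a mean of 12.3 and 178 CPM in control and A485, and Hba-a2 (a mean of 0.244 and 3.84 CPM) and the endothelial gene Tek (a mean of 0.224 and 2.16 CPM) were also higher in every A485 library than in any control. Tek did not pass the filter and had 0.369, 1.65, 6.16 and 0.480 CPM in A485 replicates 1 to 4, against at most 0.361 CPM in control. Hba-a2 passed only through its A485 libraries, with 0.961 CPM in A485 replicate 4 and 0.793 CPM in control replicate 1. Pecam1 had a mean of 12.2 and 16.0 CPM, with overlap, and Cdh5 had a mean of 0.170 CPM in control and 0 counts in every A485 library. Hbb-bs, Hbb-bt, Alas2 and Ptprc had means of at most 0.0798 CPM in either group, with overlap. No gene of these 3 lists of other cells was at 0 counts in every library. The part of other cells in the results was not tested, and in pooled embryos fewer cells of a type and less RNA per cell cannot be told apart.

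The stretches before the start sites are shown because hypoxia-inducible factors are known to bind the core ACGTG or GCGTG, and because these genes differed widely in level and response. The 250 bases before each start listed by RefSeq on GRCm38.p6 were searched for ACGTG and GCGTG on both strands, with overlapping matches counted separately. The table holds 9 starts of 8 of the genes, without Epas1 and Ndrg1. A match was found before 8 of the 9 starts (88.9%), against 38.6% of the 32851 starts in the table and 54.4% of the 13225 starts of tested genes. ACGTG or its reverse complement was before 88.9% of the members' starts and 21.2% of those of tested genes, and GCGTG or its reverse complement before 66.7% and 43.4%. The median number of CpG pairs in the 250 bases was 19 for the members, 15 for tested genes and 6 for all starts. Most of these genes were chosen as known targets of the factors, which favours matches, so nothing is read from the shares. The 5 stretches that follow lie outside the annotated gene and are given 5′ to 3′ on the strand of the gene with matches in capitals.
Fam162a, chr16:36071562-36071811, minus strand: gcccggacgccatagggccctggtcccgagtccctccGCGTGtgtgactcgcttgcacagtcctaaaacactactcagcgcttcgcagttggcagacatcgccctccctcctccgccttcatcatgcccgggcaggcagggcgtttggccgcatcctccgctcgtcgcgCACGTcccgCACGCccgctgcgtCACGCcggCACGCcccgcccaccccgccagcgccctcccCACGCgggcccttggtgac
Bnip3, chr7:138909507-138909756, minus strand: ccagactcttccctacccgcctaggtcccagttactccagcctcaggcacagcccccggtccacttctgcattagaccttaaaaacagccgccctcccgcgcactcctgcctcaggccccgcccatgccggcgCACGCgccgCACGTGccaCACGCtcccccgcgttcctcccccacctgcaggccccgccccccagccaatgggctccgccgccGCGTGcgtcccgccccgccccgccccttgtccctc
Egln1, chr8:124949255-124949504, minus strand: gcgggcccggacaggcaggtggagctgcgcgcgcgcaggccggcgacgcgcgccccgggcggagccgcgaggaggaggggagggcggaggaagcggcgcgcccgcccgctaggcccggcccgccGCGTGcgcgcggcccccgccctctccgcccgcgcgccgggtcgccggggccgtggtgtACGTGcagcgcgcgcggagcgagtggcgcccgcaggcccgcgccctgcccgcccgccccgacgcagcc
Egln3, chr12:54203875-54204124, minus strand: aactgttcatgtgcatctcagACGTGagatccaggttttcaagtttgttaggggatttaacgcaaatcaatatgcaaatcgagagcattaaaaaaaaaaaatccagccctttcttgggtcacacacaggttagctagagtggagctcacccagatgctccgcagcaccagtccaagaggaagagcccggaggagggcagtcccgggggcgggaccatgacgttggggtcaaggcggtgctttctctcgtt
Vegfa, chr17:46032378-46032627, minus strand: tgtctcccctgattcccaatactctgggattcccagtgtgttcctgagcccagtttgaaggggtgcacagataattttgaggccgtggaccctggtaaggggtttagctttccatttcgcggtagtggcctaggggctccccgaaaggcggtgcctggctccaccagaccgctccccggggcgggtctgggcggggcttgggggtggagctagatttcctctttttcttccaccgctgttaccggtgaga
Fam162a had 6 matches, Bnip3 5, Egln1 2, Egln3 1 and the shown Vegfa start 0. In Bnip3 the run CACGTG, with its first base 108 bases before the start, counts on both strands. Egln3, whose groups overlapped in expression, held ACGTG, and Vegfa, which was near absent from controls, held no match here. Its second listed start lies inside the gene and had 2 matches. For starts within the annotated gene only a short window is shown, in capitals the match. Hif1a had 3 matches, among them the one that begins 70 bases before its start.
Hif1a, chr12:73907787-73907811, plus strand: gctgagagcaACGTGggctggggtg
Ankrd37 had 4 matches, of which the one that begins 6 bases before its start is shown, and P4ha1 had 3, of which the one 16 bases before its start is shown.
Ankrd37, chr8:45999851-45999866, minus strand: gtgtttgggtACGTGa
P4ha1, chr10:59323270-59323294, plus strand: tgacagagcgCACGTagcgagggct
A match describes letters in a window and says nothing about binding in these embryos.

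The 2 factor genes moved in opposite directions. Hif1a (chromosome 12, 73901324 to 73947554, GRCm38.p6) had 6.69, 3.52, 7.13 and 6.68 CPM in control replicates 1 to 4 and 7.67, 13.9, 14.6 and 14.8 CPM in A485 replicates 1 to 4. Every A485 library was above every control, A485 replicate 1 by little, and control replicate 2 was the lowest of all. A485 over control gave a log2 fold change of 1.09 ± 0.29 (fit ± SE, n = 4 per group, as for all fold changes here), which is 2.12-fold. The gene shares 12831 bases with the lncRNA gene Gm15283, and without the strand setting of the counting, which is not given, their reads cannot be told apart there. Epas1, encoding HIF-2 alpha (chromosome 17, 86753864 to 86833410), had 54.7, 66.1, 63.8 and 78.5 CPM in control and 18.7, 7.28, 6.70 and 9.50 CPM in A485 replicates 1 to 4. All A485 libraries were below all controls, with A485 replicate 1 the highest of them. Its log2 fold change was -2.64 ± 0.32, with 65.8 ± 9.81 CPM in control and 10.5 ± 5.58 CPM in A485 (mean ± SD, n = 4 per group, as for all such levels).

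Between genes, levels can be compared only per transcript length, for which the authors' TPM values (counts scaled by transcript length and depth, with no correction for library composition) were used. In controls Epas1 was at 10.95, 11.97, 14.02 and 14.34 TPM and Hif1a at 1.51, 0.75, 1.66 and 1.51 TPM. Epas1 exceeded Hif1a in all 4 control libraries, and the TPM ratio of Hif1a to Epas1 was 0.138, 0.0627, 0.118 and 0.105. In A485 libraries this ratio was 0.473, 2.30, 2.75 and 1.86, so that Hif1a was above Epas1 in replicates 2, 3 and 4 and below it in replicate 1. Arnt, the partner subunit, had a mean of 5.93 ± 1.56 TPM in control and 7.61 ± 2.10 TPM in A485 libraries (SD, n = 4 per group). In edgeR its log2 fold change was 0.01 ± 0.17 (adjusted p 0.961). That value was of either sign among alternative settings and highest under total-count scaling, at 0.31 ± 0.20 (adjusted p 0.208). Epas1 was above Arnt in TPM in all 4 controls and in 0 of the 4 A485 libraries, whereas Hif1a was below Arnt in all 8. The gene of the third alpha subunit, Hif3a, and the Arnt paralog Arnt2 did not pass the filter, with a mean of 0.0417 and 0.420 CPM for Hif3a and a mean of 0.112 and 0.109 CPM for Arnt2 in control and A485.

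**Figure D1:**
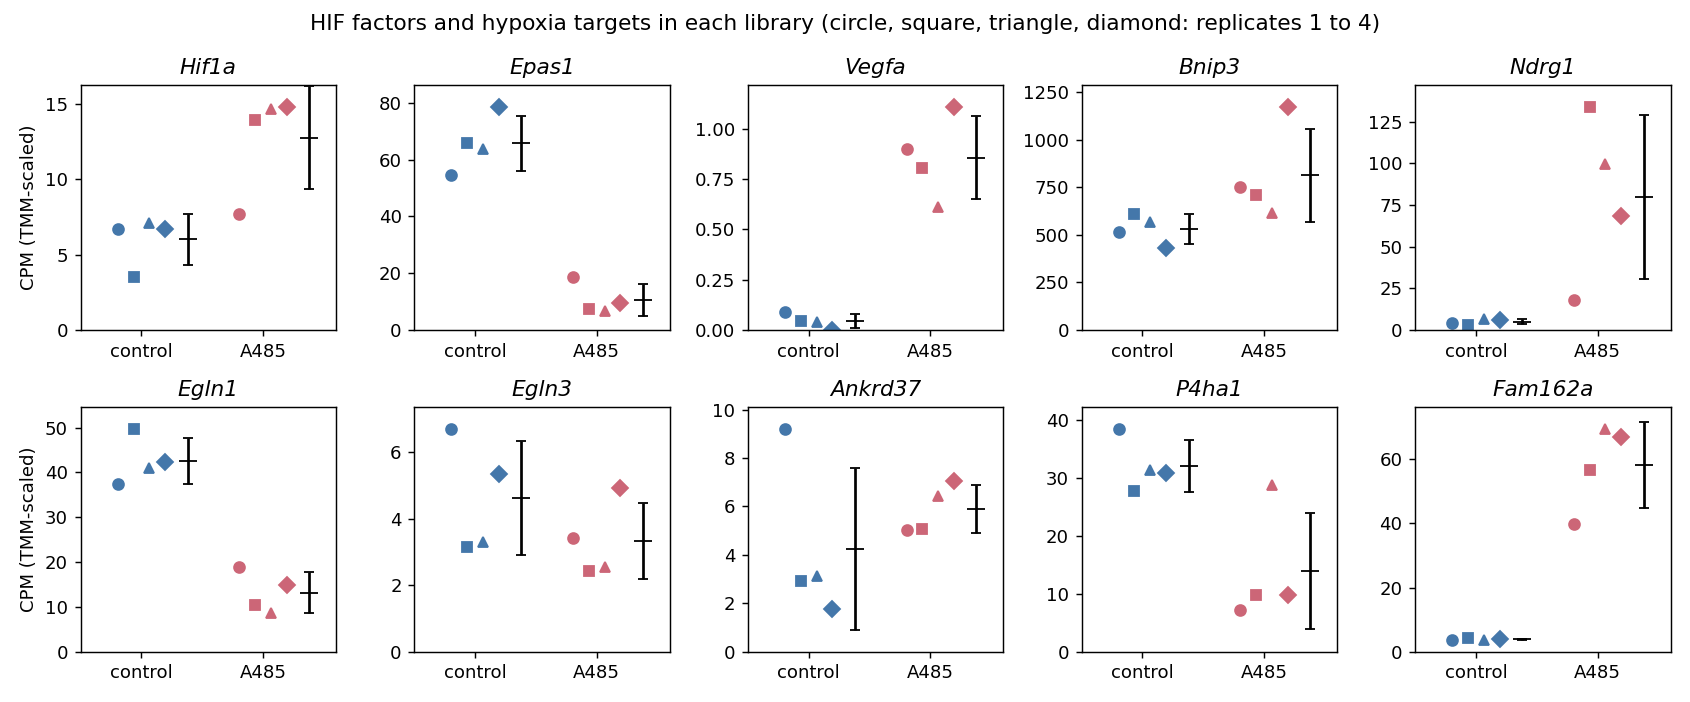
CPM (TMM-scaled, linear axis from 0) of the 10 genes in each of the 4 control (blue) and 4 A485 (red) libraries, with the symbol giving the replicate and the black mark the mean and SD of the group. The groups lie apart for 7 genes and overlap for Egln3, Ankrd37 and P4ha1.

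Of the oxygen-sensing hydroxylases, Egln1, encoding the prolyl hydroxylase PHD2 (chromosome 8, 124908587 to 124949254), was lower in A485. It had 37.3, 49.7, 41.0 and 42.3 CPM in control and 18.9, 10.3, 8.61 and 14.8 CPM in A485 replicates 1 to 4, and the groups did not overlap. This was a log2 fold change of -1.70 ± 0.24. The gene shares 9968 bases with the lncRNA gene Gm46060, with the same limit as for Hif1a. Egln3, encoding PHD3 (chromosome 12, 54178981 to 54203874), had 6.69, 3.16, 3.29 and 5.34 CPM in control and 3.41, 2.41, 2.55 and 4.91 CPM in A485 replicates 1 to 4. These libraries overlapped, with A485 replicates 1 and 4 above control replicates 2 and 3, and the log2 fold change of -0.48 ± 0.34 did not pass the threshold used over all genes. In TPM, Egln2, encoding PHD1, was the most abundant of the 3 in all 8 libraries, at 20.6 ± 0.992 TPM in control and 19.2 ± 2.54 TPM in A485 (SD, n = 4 per group). The share of Egln1 in the summed TPM of the 3 genes was 29.7% to 39.4% in controls and 12.4% to 23.1% in A485 libraries, and the sum went from 34.3 ± 0.749 to 25.2 ± 1.31 TPM (SD, n = 4 per group).

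**Figure D2:**
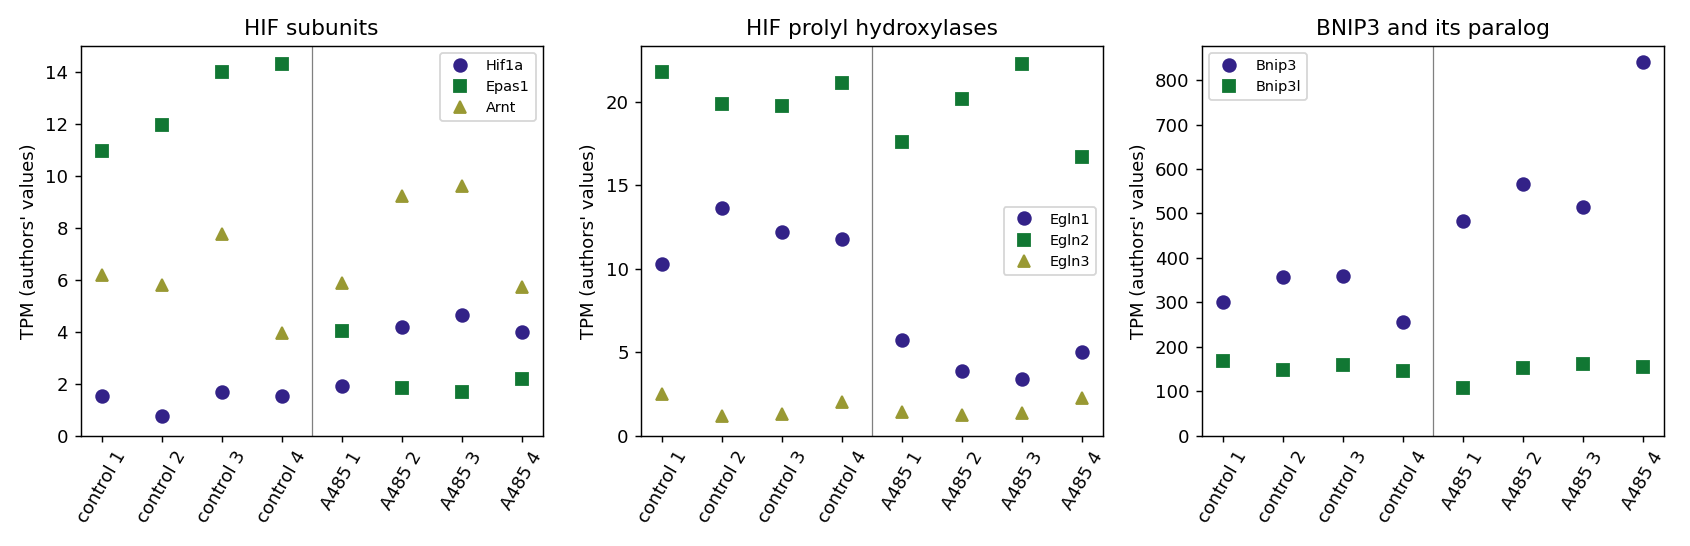
TPM (the authors' values, linear axis from 0) in each library of the HIF subunit genes, the 3 HIF prolyl hydroxylase genes, and Bnip3 with its paralog Bnip3l, with controls left and A485 right of the line. Epas1 is above Hif1a in every control and below it in A485 replicates 2, 3 and 4, and Egln2 is the highest hydroxylase gene throughout.

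Among the targets, Vegfa, Ndrg1 and Fam162a had the largest fold changes of the 10 genes. Vegfa, encoding a growth factor for blood vessels (chromosome 17, 46016993 to 46032377), had 2, 1, 1 and 0 counts in control replicates 1 to 4 and 22, 22, 18 and 30 counts in A485 replicates 1 to 4. The A485 libraries thus lay between 0.612 and 1.11 CPM, above every control, and Vegfa had the lowest TPM of the 10 genes in both groups. Over the groups there were 4 and 92 counts, 19.2 times as many for the depth (95% Clopper-Pearson interval 7.26 to 72.1, for counting error only). Because Vegfa passed the filter only through its A485 libraries, it had to differ.

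Fam162a, encoding a mitochondrial protein linked to cell death under hypoxia (chromosome 16, 36043844 to 36071561), was the steadiest of the 10 in controls, at 3.79, 4.15, 3.79 and 3.85 CPM. These are 86, 92, 91 and 83 counts, a spread smaller than counting error, so it is no measure of how steady the gene is. In A485 replicates 1 to 4 Fam162a stood at 39.7, 56.6, 69.4 and 66.9 CPM, with no overlap. The log2 fold change was 3.90 ± 0.21, or 14.9-fold. Ndrg1, encoding a stress-responsive cytoplasmic protein that is widely used as a marker of hypoxia (chromosome 15, 66929318 to 66969641), had 4.32, 2.98, 6.46 and 5.66 CPM in control. It had 17.7, 134, 99.8 and 68.2 CPM in A485 replicates 1 to 4, all above the controls, with a 7.56-fold range within the A485 group. Its log2 fold change was 4.04 ± 0.58. In the same family 3 other genes were tested, of which 2 rose and 1 fell, beside 29.7% and 25.0% of all genes tested. Ndrg2 rose from 0.845 ± 0.594 to 3.91 ± 1.49 CPM (log2 fold change 2.21 ± 0.53, adjusted p 0.00522). It reached the minimum of the filter in 2 control and 4 A485 libraries, so the filter favoured a rise without fixing it. Ndrg4 rose (log2 fold change 2.89 ± 0.35, adjusted p 0.000108) and Ndrg3 fell (log2 fold change -0.65 ± 0.13, adjusted p 0.00167). The latter call was lost when libraries were scaled by total counts (-0.36, adjusted p 0.0510).

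Bnip3, encoding a mitochondrial outer membrane protein that acts in mitophagy and cell death (chromosome 7, 138890836 to 138909506), had by far the highest TPM of the 10. It had 514, 610.2, 567 and 432 CPM in control and 752, 711, 617 and 1171 CPM in A485 replicates 1 to 4. The groups did not overlap, yet A485 replicate 3 and control replicate 2 were close, and A485 replicate 4 was well above the rest. The log2 fold change was 0.62 ± 0.20, and 0.39 without A485 replicate 4. A pseudogene of 988 bases, Gm18258, lies within the gene, so its count is uncertain to that extent. The paralog Bnip3l, also a mitophagy receptor, fell, with 504 ± 36.6 CPM in control and 374 ± 36.8 CPM in A485 (log2 fold change -0.43 ± 0.12, adjusted p 0.0122), but the call was lost under total-count scaling (-0.14, adjusted p 0.379). The TPM ratio of Bnip3 to Bnip3l was 1.76 to 2.43 in controls and 3.18 to 5.49 in A485 libraries.

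Ankrd37, encoding an ankyrin repeat protein (chromosome 8, 45996908 to 46000414), had 9.20, 2.93, 3.13 and 1.76 CPM in control and 5.05, 5.09, 6.43 and 7.06 CPM in A485 replicates 1 to 4. Control replicate 1 was the highest of all 8 libraries while the other 3 controls lay below every A485 library. The log2 fold change of 0.47 ± 0.45 did not pass the threshold, but that of 1.16 without control replicate 1 did. The gene shares 51 bases with Ufsp2, and the strand setting of the counting is not given, so its count is uncertain to that extent. P4ha1, encoding a catalytic subunit of the prolyl hydroxylase that modifies collagen (chromosome 10, 59323197 to 59373304), had 38.4, 27.8, 31.3 and 30.9 CPM in control and 7.22, 9.77, 28.8 and 9.83 CPM in A485 replicates 1 to 4. A485 replicate 3 lay among the controls and the other 3 far below them. The log2 fold change was -1.21 ± 0.39, and -1.84 without A485 replicate 3.

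In the fit over all genes (edgeR, Benjamini-Hochberg adjusted p of 0.05) 5 of the 10 genes passed as higher in A485, Hif1a, Vegfa, Bnip3, Ndrg1 and Fam162a, against 29.7% of all genes tested. There were 3 that passed as lower, Epas1, Egln1 and P4ha1, against 25.0% of all genes tested. The libraries did not overlap for 5 of the 10 on the higher side and 2 on the lower side, where 26.9% and 24.6% of all genes tested did so. Since these genes were chosen with this comparison known, nothing is read from those counts. Bnip3 missed the threshold with control replicate 1, 3 or 4 or A485 replicate 4 left out and with a replicate block, with log2 fold changes of 0.39 to 0.60. P4ha1 missed it with control replicate 1 or A485 replicate 2 or 4 left out, without A485 replicates 1 and 2 together, and under total-count scaling, with log2 fold changes of -1.13 to -0.75. Total-count scaling shifted the median over all genes tested from a log2 fold change of 0.085 to 0.372. It moved the share of higher genes among those that passed from 54.2% to 68.2%, and it left the direction of all 10 genes as it was. In the authors' deposited table the log2 fold changes lay close to these, from -2.67 for Epas1 to 4.25 for Vegfa.

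**Figure D3:**
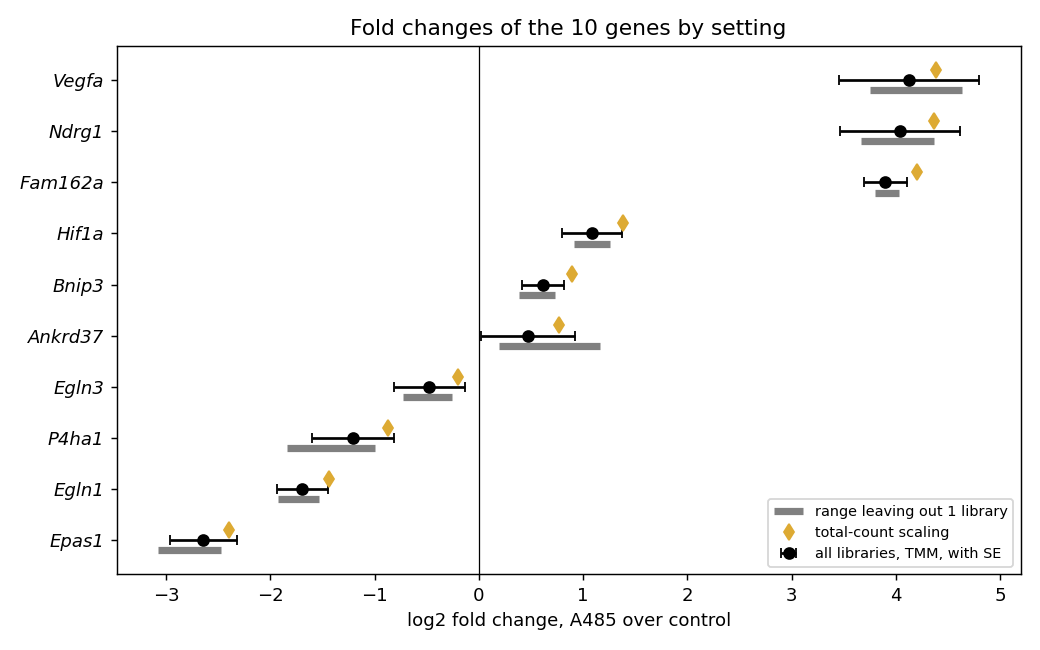
Log2 fold change of A485 over control for the 10 genes, with the SE (black), the range when each library in turn was left out (grey) and the value under total-count scaling (yellow). Each gene stays on its side of 0 in these settings, and the grey range of Ankrd37 is the widest of the 10.

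The order of the 10 genes by TPM differed between the groups. In controls Bnip3 led at 318 ± 49.4 TPM, followed by Epas1 (12.8), Egln1 (11.96), P4ha1 (7.80), Fam162a (7.48), Ankrd37 (5.42), Egln3 (1.73), Ndrg1 (1.70), Hif1a (1.36) and Vegfa (0.0175). Of neighbours in this order, only Bnip3 and Epas1, Egln1 and P4ha1, and Hif1a and Vegfa had libraries that did not overlap. In A485 libraries Bnip3 at 601 ± 163 TPM was followed by Fam162a (142), Ndrg1 (36.2), Ankrd37 (9.52), Egln1 (4.48), P4ha1 (4.41), Hif1a (3.69), Epas1 (2.43), Egln3 (1.54) and Vegfa (0.338). There the neighbours Bnip3 and Fam162a, Fam162a and Ndrg1, Ankrd37 and Egln1, and Egln3 and Vegfa did not overlap, and the others did. Epas1 thus went from rank 2 to rank 8 and Fam162a from rank 5 to rank 2.

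Within the A485 group the replicates differed in how far the genes stood from control. Of the 8 genes that passed, 5 (Hif1a, Epas1, Ndrg1, Egln1 and Fam162a) had A485 replicate 1 as the library closest to the control mean in log2 CPM, and 3 (Vegfa, Bnip3 and P4ha1) had replicate 3. For Ndrg1 replicate 1 was 1.91 log2 units from the control mean and the other libraries 3.85 to 4.82. The coefficient of variation between libraries was higher in A485 than in control for Epas1 (52.9% against 14.9%), Bnip3 (30.2% against 14.5%), Ndrg1 (61.8% against 31.5%), Egln1 (35.2% against 12.2%), P4ha1 (71.9% against 14.1%) and Fam162a (23.2% against 4.47%). It was lower in A485 for Hif1a (26.7% against 27.8%), Vegfa (24.1% against 82.3%), Egln3 (34.6% against 36.9%) and Ankrd37 (17.0% against 78.8%). The control value of Vegfa rests on 2, 1, 1 and 0 counts, so it is no measure of spread beyond counting error. The control value of Fam162a is smaller than counting error at its counts and so too low as a measure of spread. The genes most like each member were sought by Pearson's r of log2 CPM after each group's mean was subtracted, over 8 libraries among 6896 or 6897 genes with an average log2 CPM of at least 3. The libraries share the separation of A485 replicates into pairs. The 2 closest were Tpi1 and Pank2 for Hif1a (r = 0.981 and 0.975), Lasp1 and Ssna1 for Epas1 (0.990 and 0.979), Psmd7 and Aurka for Bnip3 (0.999 and 0.990), and Rrs1 and Pou5f1 for Egln1 (0.993 and 0.992). They were Rnd2 and Nsd3 for Ndrg1 (0.986 and 0.982), Tmem14c and Ppp1r2 for P4ha1 (0.997 and 0.988), and Dcaf11 and Pdcl for Fam162a (0.987 and 0.984). For the less abundant genes they were Cdk2 and Ing4 for Vegfa (0.976 and 0.953), Dguok and Psmd4 for Egln3 (0.960 and 0.951), and Arrdc1 and Calml4 for Ankrd37 (0.955 and 0.916). These values are a description and no more.

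The other genes of the factor pathway were taken from a list of subunits, oxygen sensors, degradation factors and coactivators. The list also holds the repressor genes Bhlhe40 and Bhlhe41, which are among those counted as risen. Of 22 tested 7 rose and 9 fell, which is 31.8% and 40.9%, with a median log2 fold change of -0.01. Over all genes tested 29.7% rose and 25.0% fell, with a median of 0.085, so that the share that rose was close to that of all genes. Of the 7 that rose, Cited2 passed the filter only through its A485 libraries. Hif1an, encoding the asparaginyl hydroxylase that blocks coactivator binding, fell, with 25.0 ± 3.44 CPM in control and 7.39 ± 1.41 CPM in A485 (log2 fold change -1.76 ± 0.19, adjusted p 6.10e-05). Cul2, the scaffold of the VHL ubiquitin ligase, fell, with 96.9 ± 9.24 CPM in control and 31.6 ± 7.44 CPM in A485 (log2 fold change -1.61 ± 0.18, adjusted p 6.92e-05). Vhl itself had 71.2, 81.2, 61.0 and 72.1 CPM in control and 53.4, 35.9, 13.7 and 23.0 CPM in A485 replicates 1 to 4, without overlap. It fell (log2 fold change -1.18 ± 0.34, adjusted p 0.0148), by more without A485 replicates 1 and 2 (-1.98). Of the other subunits of that ligase Eloc fell (log2 fold change -2.34 ± 0.31, adjusted p 0.000191), while Elob (log2 fold change 0.04 ± 0.15, adjusted p 0.835) and Rbx1 (log2 fold change -0.03 ± 0.13, adjusted p 0.854) did not pass the threshold. Egln2 fell less (log2 fold change -0.41 ± 0.14, adjusted p 0.0269), a call that was lost when any library except control replicate 3 or A485 replicate 1 or 3 was left out, and under 5 other settings.

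Cited4 belongs to a family whose products compete with other factors for p300 and CBP, and it fell, with 12.7 ± 3.65 CPM in control and 1.63 ± 0.671 CPM in A485 (log2 fold change -2.95 ± 0.35, adjusted p 9.85e-05). Cited2, a known inhibitor of the factors by the same contact, had 0.655 ± 0.453 CPM in control and 3.01 ± 0.734 CPM in A485. Cited2 reached the minimum of the filter in 3 control and 4 A485 libraries, so the filter favoured a rise without fixing it. Its log2 fold change of 2.19 ± 0.48 was 2.79 without control replicate 2. Ep300 and Crebbp, which encode the proteins that A485 inhibits, rose as well (Ep300 log2 fold change 1.17 ± 0.36, adjusted p 0.0197, and Crebbp log2 fold change 0.75 ± 0.20, adjusted p 0.00917). For Ep300 the threshold was missed without control replicate 3 or 4, without A485 replicate 2, and without A485 replicates 1 and 2 together. The hypoxia-induced repressor gene Bhlhe40 rose (log2 fold change 4.66 ± 0.67, adjusted p 0.000486), with 5.34 when control replicate 1 and 3.94 when A485 replicates 3 and 4 were left out. Its paralog Bhlhe41 rose too (log2 fold change 2.83 ± 0.64, adjusted p 0.00403), with 3.67 when control replicate 3 was left out. Os9, encoding a lectin of the endoplasmic reticulum that has also been described to promote hydroxylation of HIF-1 alpha, rose by less (log2 fold change 0.87 ± 0.19, adjusted p 0.00299).

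Of the other non-glycolytic hypoxia targets on a list, 55 of 57 were found, 43 tested, 17 rose, 5 fell and 21 did not pass. That is 39.5% higher and 11.6% lower, with a median log2 fold change of 0.32, where 29.7% of all genes tested rose and 25.0% fell with a median of 0.085. Of the 17 that rose, 6 passed the filter only through their A485 libraries. Bhlhe40 and Cited2 are among the 17 and were also counted in the factor pathway list. Hmox1, which encodes haem oxygenase, had 49.7 ± 18.7 CPM in control and 2945 ± 670.4 CPM in A485 (log2 fold change 5.89 ± 0.34, adjusted p 6.03e-06). Ero1l (also Ero1a), encoding an oxidase of protein folding, had 15.1 ± 2.85 CPM in control and 219 ± 94.1 CPM in A485 (log2 fold change 3.85 ± 0.37, adjusted p 4.09e-05), and the cyclin gene Ccng2 0.873 ± 0.178 CPM in control and 6.97 ± 2.24 CPM in A485 (log2 fold change 2.99 ± 0.33, adjusted p 7.00e-05). For these 3 genes every A485 library was above every control. Adm, encoding the vessel peptide adrenomedullin, had 1.81, 1.58, 1.08 and 2.37 CPM in control and 4.10, 27.2, 28.6 and 53.2 CPM in A485 replicates 1 to 4. It was lowest in A485 replicate 1, as Ndrg1 was, and it rose (log2 fold change 4.05 ± 0.67, adjusted p 0.000882), by 3.20 without A485 replicates 3 and 4. Ak4, encoding a mitochondrial adenylate kinase, fell, with 157 ± 11.0 CPM in control and 17.2 ± 9.37 CPM in A485 (log2 fold change -3.19 ± 0.34, adjusted p 6.64e-05), and its log2 fold change was -3.98 without A485 replicates 1 and 2. Ccn2 (log2 fold change -2.42 ± 0.31, adjusted p 0.000149) and Sap30 (log2 fold change -1.52 ± 0.27, adjusted p 0.000945) fell too.

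**Figure D4:**
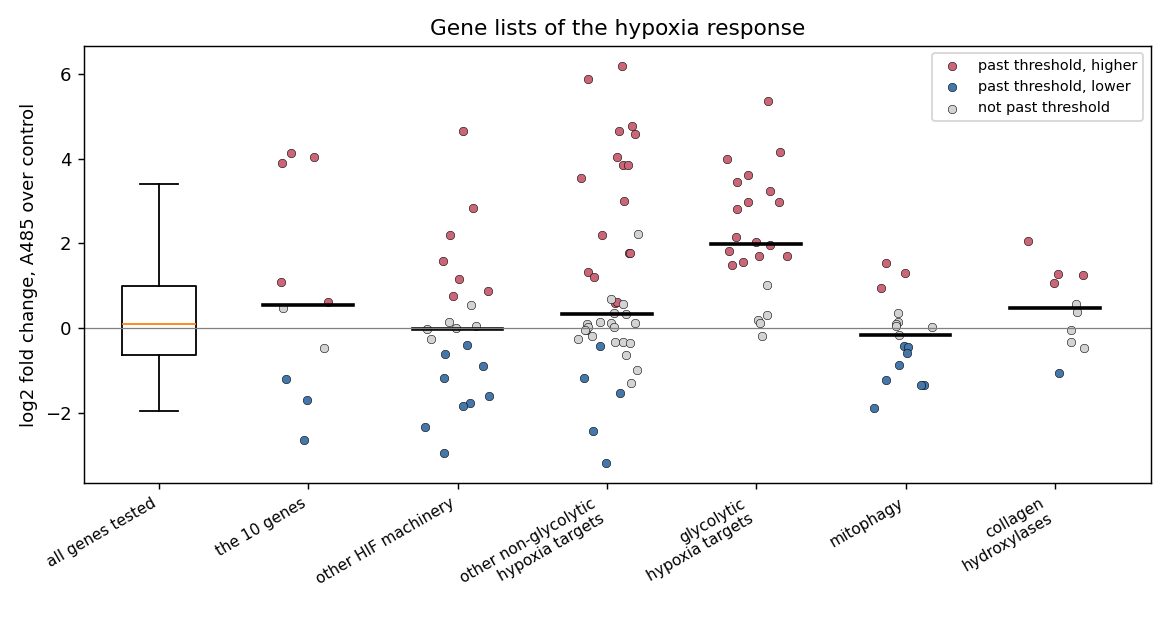
Log2 fold change of A485 over control for each tested gene of 6 lists, coloured by whether it passed an edgeR adjusted p of 0.05, with the list median as a black line and all tested genes as a box (quartiles, with whiskers at percentiles 5 and 95). The glycolytic targets lie almost all above 0, while the 10 genes and the other factor pathway genes lie on both sides.

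For comparison, 17 of the 22 glycolytic hypoxia targets rose and 0 fell in edgeR, with a median log2 fold change of 1.99, beside 29.7% and 25.0% of all genes tested. Of the 17, 4 passed the filter only through their A485 libraries. The 17 include Ldha (log2 fold change 3.99 ± 0.23, adjusted p 5.61e-06), Gpi1 (log2 fold change 2.16 ± 0.14, adjusted p 7.50e-06) and Eno1 (log2 fold change 2.82 ± 0.21, adjusted p 1.16e-05). Of the 22, 0 were lower at an unadjusted p under 0.05, 0 in DESeq2 and 0 in limma-voom. Of 9 VEGF ligands and receptors other than Vegfa, 3 passed the filter. Of these the ligand gene Vegfb (a mean of 0.210 and 0.893 CPM in control and A485) and the receptor gene Flt1 did so only through their A485 libraries, as Vegfa did. Vegfb reached the minimum of the filter in 0 controls and had to differ. For Flt1, which reached it in 1 control, the filter favoured a rise without fixing it. Flt1 had 2.09, 8.23, 24.5 and 3.07 CPM in A485 replicates 1 to 4 and at most 0.793 CPM in control. Its log2 fold change of 4.77 ± 0.94 was 3.69 without A485 replicate 3, 3.89 without A485 replicates 3 and 4, and 5.57 without control replicate 1.

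Around Bnip3, 17 genes of mitophagy receptors and regulators were tested, of which 3 rose and 8 fell, with a median log2 fold change of -0.17. These are 17.6% and 47.1% of the list, beside 29.7% and 25.0% of all genes tested. Sqstm1, encoding an autophagy receptor, rose, with 417 ± 83.4 CPM in control and 1025 ± 184 CPM in A485 (log2 fold change 1.30 ± 0.18, adjusted p 0.000271). Gabarapl1 (log2 fold change 0.94 ± 0.25, adjusted p 0.00834) and Optn (log2 fold change 1.53 ± 0.42, adjusted p 0.0113) rose too, and both calls were lost without A485 replicates 3 and 4 together, at 0.46 and 0.59. Phb2 (log2 fold change -1.35 ± 0.14, adjusted p 5.01e-05), Gabarapl2 (log2 fold change -1.35 ± 0.19, adjusted p 0.000256) and Calcoco2 (log2 fold change -1.88 ± 0.27, adjusted p 0.000316) fell. Around P4ha1, a list of collagen hydroxylases and related genes was taken. Of 10 tested 4 rose and 1 fell, with a median log2 fold change of 0.47, where the shares of all genes were again 29.7% and 25.0%. P4hb, encoding the subunit that P4HA1 binds, rose, with 243 ± 15.9 CPM in control and 510.3 ± 68.0 CPM in A485 (log2 fold change 1.07 ± 0.13, adjusted p 0.000123), and so did P3h1 (log2 fold change 2.05 ± 0.38, adjusted p 0.00126) and Plod3 (log2 fold change 1.25 ± 0.25, adjusted p 0.00180). P4htm, encoding a transmembrane prolyl hydroxylase, fell (log2 fold change -1.07 ± 0.32, adjusted p 0.0160), a call lost without control replicate 1 (-0.90) and under total-count scaling (-0.77).

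Annotation in the deposited table gave wider lists. Of the genes annotated with the Gene Ontology response to hypoxia, other than the 10, 133 were tested, 47 rose (35.3%) and 33 fell (24.8%), with a median log2 fold change of 0.26. Of those in the KEGG HIF-1 signaling pathway 85 were tested, 40 rose (47.1%) and 18 fell (21.2%), with a median of 0.63. Without the glycolytic list 70 remained, of which 28 rose (40.0%) and 18 fell (25.7%), with a median of 0.31. These still hold isozymes of glycolytic enzymes that are not on that list. Of them Ldhb, Ldhc, Eno1b, Eno3 and Aldoart1 rose, Eno4 fell, and Hkdc1 and Aldoart2 did not pass. The median over all genes tested was 0.085, with 29.7% higher and 25.0% lower. Of the genes that rose, 13 of 47, 13 of 40 and 10 of 28 in these 3 lists and 1129 of 3839 over all genes passed the filter only through their A485 libraries.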

How the data were processed

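Polyadenylated RNA of 8 pools of mouse morulae was measured. The genome build was GRCm38.p6, and the tools listed in the submitters' processing notes are DESeq2 1.40.2, RSEM 1.2.28 and HISAT2 2.2.1, in no given order. Strandedness and the annotation are not given in the sources used here. Per the file headers, the authors deposited per gene and library an estimated count, a normalized count (a scaled signal), FPKM and TPM. The same deposited table holds a log2 fold change, p-value and q-value of the group comparison. Of the estimated counts 18.2% were not whole, and they were rounded. FPKM and normalized counts were not used, and TPM served to compare levels between genes.

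The quasi-likelihood test of edgeR 4.0.16 (R 4.3.3) compared the groups after filterByExpr and TMM, with robust dispersion and no covariate, and all adjusted p values in the text are its Benjamini-Hochberg values over 12936 genes. Each SE was derived from the F statistic as the absolute log2 fold change over its root. The code was tested on simulated data. Alternatives were DESeq2 1.42.0, limma-voom (limma 3.58.1), other scalings, filters and dispersion, a replicate block, and leaving out libraries. The members and lists were chosen with earlier results of these data known, and the 2 annotation lists were added after seeing the data. Named beside the members are up to 3 genes of smallest p per list and direction with at least 5 CPM in a group, and always Arnt, Vhl, Egln2, Hif1an, Cited2, Ep300, Crebbp, Bnip3l, Hif3a, Arnt2 and Adm. Marker genes, Ndrg2, Vegfb, Eloc, Elob, Rbx1 and the isozymes of glycolytic enzymes in the KEGG list were named outside this rule, after their values were seen. List symbols absent from the table were looked up as older symbols. Lists could share genes, and Bhlhe40 and Cited2 were counted both in the factor pathway and among the other hypoxia targets. Those targets also share Flt1 and Pgf with the VEGF list, Bnip3l with the mitophagy list, and P4ha2, Plod1 and Plod2 with the list around P4ha1. Nothing says that pools came from separate litters or days, so p-values measure the spread between these pools. No pair of replicates agreed within sampling noise (chi-square per degree of freedom of at least 18.8). Intervals cover counting error only.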

Additional observations from a re-analysis of the deposited data

Results flagged for a closer look

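In each group of 4 libraries, a library was marked where its gap to the nearest other library, over the group's range, exceeded Dixon's 95% critical value, which chance gives in about 1 in 20 groups. This held in 7 of 92 groups examined for the genes named here. Hif1a was marked in both groups, with control replicate 2 at 3.52 CPM against 6.68 to 7.13 CPM in the other controls, and A485 replicate 1 at 7.67 CPM against 13.9 to 14.8 CPM. P4ha1 was marked for A485 replicate 3 at 28.8 CPM, where the other A485 libraries had 7.22 to 9.83 CPM. Bhlhe41 stood at 2.63 CPM in control replicate 3 against 0.497 to 0.661 CPM. Bnip3l stood at 558.6 CPM in control replicate 1 against 478.5 to 490.7 CPM. In control replicate 4, Crebbp was at 11.3 CPM against 6.77 to 7.42 CPM and Plod3 at 12.9 CPM against 7.53 to 7.76 CPM.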

How the results depend on the processing

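The direction of each of the 10 genes held in every alternative that gave a value, 19 for most and 18 for Vegfa and Egln3, which the filter of 5 CPM removed. The call of Bnip3 and that of P4ha1 were each lost in 5 alternatives, and Ankrd37 passed in 1. With the filter of 5 CPM in 4 libraries, which tests fewer genes, 2526 genes passed as higher (3839 otherwise), with 3 rather than 7 of the factor pathway list and 9 rather than 17 of the other hypoxia targets. Without A485 replicates 1 and 2, 9 rather than 5 of the other hypoxia targets were lower. The number tested and the share of all genes in that setting are not given here, so nothing is read from this count. The value of Arnt, near 0 in the main fit, changed sign with RLE factors (-0.0083), no filter (-0.046), DESeq2 (-0.0085), and without A485 replicates 1 and 2 together (-0.061), and lay between -0.111 and 0.086 when single libraries were left out. Higher values came with total-count scaling (0.305, adjusted p 0.208), the filter of 5 CPM (0.141) and upper-quartile factors (0.109), and none passed the threshold. Of 677 values of the 36 other named genes under the alternatives, 650 kept direction and call, 20 lost the call and 7 were those of Arnt. No label pairs libraries of equal replicate number, and the correlation of their deviations from the group means was 0.00518, 0.0138, 0.104 and 0.0672 for replicates 1 to 4. Values this small over so few libraries cannot decide whether a litter or day was shared. The replicate block gave 3508 higher and 3163 lower genes, 4 and 3 of the 10 genes among them, and the calls of Bnip3 and Egln2 were lost with it. Control replicates 1 and 2 correlated best with A485 replicates 2 and 1 (0.117 and 0.143), not with their own number. Control replicates 3 and 4 correlated best with their own number (0.104 and 0.0672). Vegfa is limited by depth, at 4 control counts in all.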
